A study of Mus musculus with 18 samples.

Results

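The matrix metalloproteinases (Mmp genes), the ADAMTS proteases (Adamts genes) and the tissue inhibitors of metalloproteinases (Timp genes) were examined in 18 melanomas. The genes were chosen by name alone, as every gene of the deposited table named Mmp, Adamts or Timp with its number. This gave 46 of 41079 genes, of which 23 are Mmp, 19 Adamts and 4 Timp genes.

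The tumors grew from B16F10 cells, an established mouse melanoma line, placed under the skin of the flank of C57BL/6 females of an age not stated in the sources used here. The number of implanted cells differs between the sources and is not given here. From day 6, when tumors measured about 50 mm3, agents were injected into the tumor every 2 days, and tumors were taken 48 h after the final dose. Poly(A) RNA was sequenced, and levels are given as FPKM, fragments per length of the gene and per number of fragments assigned in the tumor, so that levels of different genes can be compared per length. There were 6 groups of 3 tumors: PBS, the control injection; Free PS473, an uncarried Pistol ribozyme built to cleave the mRNA of PD-L1 (Cd274); PS473@CPs, the same ribozyme on cationic polymers; NKMOF-101-[Mn], an empty manganese framework used as carrier; M5@NKMOF-101-[Mn], in which that framework holds M5, a catalytically inactive mutant of the ribozyme; and PS473@NKMOF-101-[Mn], in which it holds the active one. All groups carried the same implanted cell line in the same mouse strain, and the titles of the last group write NKMOF-102 where the treatment text has NKMOF-101.

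Mmp proteins are zinc proteases that cut collagens, elastin and other matrix proteins outside the cell, and most are made as inactive precursors. Adamts proteins are secreted relatives that process procollagens and proteoglycans, and Timp proteins bind and block the active site of these proteases. In tumors they come from the cancer cells as well as from fibroblasts, macrophages, neutrophils and vessels, and they are known for remodelling the matrix through which cells move.

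Recovered from the steps between low values, 17212000 to 28401000 fragments were assigned per tumor, and no 2 tumors held identical values. The melanocyte marker score, the mean log2(FPKM + 1) of 9 genes, lay between 7.63 and 8.40 in all 18 tumors. Cd274, the mRNA the ribozyme is built to cleave, lay between 12.3 and 21.5 FPKM in PBS tumors and between 9.74 and 32.9 FPKM in PS473@NKMOF-101-[Mn] tumors, so its level overlapped and gives no check of the labels. The skin epithelium score, over 14 keratinocyte genes, ran from 0.114 to 5.91, and it varied widely within single groups (0.139 to 5.55 in PBS and 0.142 to 5.91 in PS473@CPs). In the other groups it ran from 0.114 to 2.65 with Free PS473, 0.141 to 4.71 with NKMOF-101-[Mn], 0.154 to 3.34 with M5@NKMOF-101-[Mn] and 0.152 to 3.27 with PS473@NKMOF-101-[Mn]. The 6 tumors with the highest skin scores were PS473@CPs 2, PBS 2, NKMOF-101-[Mn] 1, PBS 3, PS473@NKMOF-101-[Mn] 2 and M5@NKMOF-101-[Mn] 3, and values without these 6 are given for the slopes on the fibroblast and neutrophil scores.

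On mouse chromosome 9, 10 Mmp genes lie next to each other, in the order Mmp13, Mmp12, Mmp1b, Mmp3, Mmp1a, Mmp10, Mmp8, Mmp27, Mmp20 and Mmp7 in RefSeq (GRCm38.p6), with 0 other protein-coding genes between the first and the last. The cluster holds 3 of the 5 tested members whose levels differed most between tumors (Mmp3, Mmp13 and Mmp12). The 100 bases just upstream of the annotated start are shown for Mmp3, Mmp13, Mmp10 and Mmp1b of this cluster, though not for Mmp12. Mmp10 and Mmp1b were not among the tested members. Mmp14, the most abundant member, which lies on chromosome 14, is shown beside them. Sequences are from RefSeq, GRCm38.p6, read 5′ to 3′ on the strand of the gene, and capitals mark TGANTCA (the AP-1 type motif, the same on both strands) and TATAAA (the TATA type motif, searched on both strands).
Mmp3, chr9:7445722-7445821 (+ strand): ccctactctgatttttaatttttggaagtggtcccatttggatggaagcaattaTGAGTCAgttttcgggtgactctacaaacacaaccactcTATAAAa
Mmp10, chr9:7502242-7502341 (+ strand): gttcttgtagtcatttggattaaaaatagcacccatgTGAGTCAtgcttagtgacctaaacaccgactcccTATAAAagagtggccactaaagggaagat
Mmp13, chr9:7272414-7272513 (+ strand): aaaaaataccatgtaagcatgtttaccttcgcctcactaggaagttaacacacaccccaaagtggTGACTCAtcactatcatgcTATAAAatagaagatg
Mmp1b, chr9:7388027-7388126 (- strand): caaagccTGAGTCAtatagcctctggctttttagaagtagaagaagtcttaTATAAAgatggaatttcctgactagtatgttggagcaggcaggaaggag
Mmp14, chr14:54431498-54431597 (+ strand): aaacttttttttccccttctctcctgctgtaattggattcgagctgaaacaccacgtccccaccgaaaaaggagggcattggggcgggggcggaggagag

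In the 250 bases upstream of the start, TGANTCA was present in at least 1 window of 8 of the 10 cluster genes (all but Mmp8 and Mmp27), and both motifs in the same window of 7 (those 8 without Mmp12). Over all 32851 mouse windows of that length, 6.75% held TGANTCA, 12.4% TATAAA and 1.22% both. Of the 22 other members with a window, 0 held TGANTCA and 2 held TATAAA (Adamts1 and Mmp21). A window was found for 32 of the 46 members. These are matches of letters and not sites of binding. The cluster genes shown above all hold both motifs, as do Mmp1a, Mmp20 and Mmp7, which averaged 0.0244, 0.0004 and 0 FPKM. Whether the motifs go with the level of a gene or its spread was not tested.

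Levels of the members spanned several orders of magnitude. Mean levels over the 18 tumors were at least 10 FPKM for 6 members, 1 to 10 FPKM for 12, 0.1 to 1 FPKM for 16 and under 0.1 FPKM for 12, and 32 members were above 0 in every tumor. Mmp7, a small secreted protease of epithelia, was listed at 0 in all 18 tumors. The 18 members with a mean of at least 1 FPKM entered the tests, 9 Mmp, 6 Adamts and 3 Timp genes. Of the 28 others, 6 reached 1 FPKM in at least 1 tumor, and Mmp10 just missed the limit with a mean of 0.987 FPKM, while Mmp19, the lowest Mmp gene inside it, averaged 1.41 FPKM. Between 0.1 and 1 FPKM lay Mmp10, Mmp24, Mmp23, Mmp8, Mmp27, Mmp17, Mmp28, Mmp25, Mmp1b, Adamts6, Adamts5, Adamts9, Adamts14, Adamts7, Adamts13 and Adamts17, and under 0.1 FPKM lay Mmp21, Mmp1a, Mmp16, Mmp20, Mmp7, Adamts15, Adamts8, Adamts18, Adamts3, Adamts16, Adamts19 and Timp4.

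**Figure D1:**
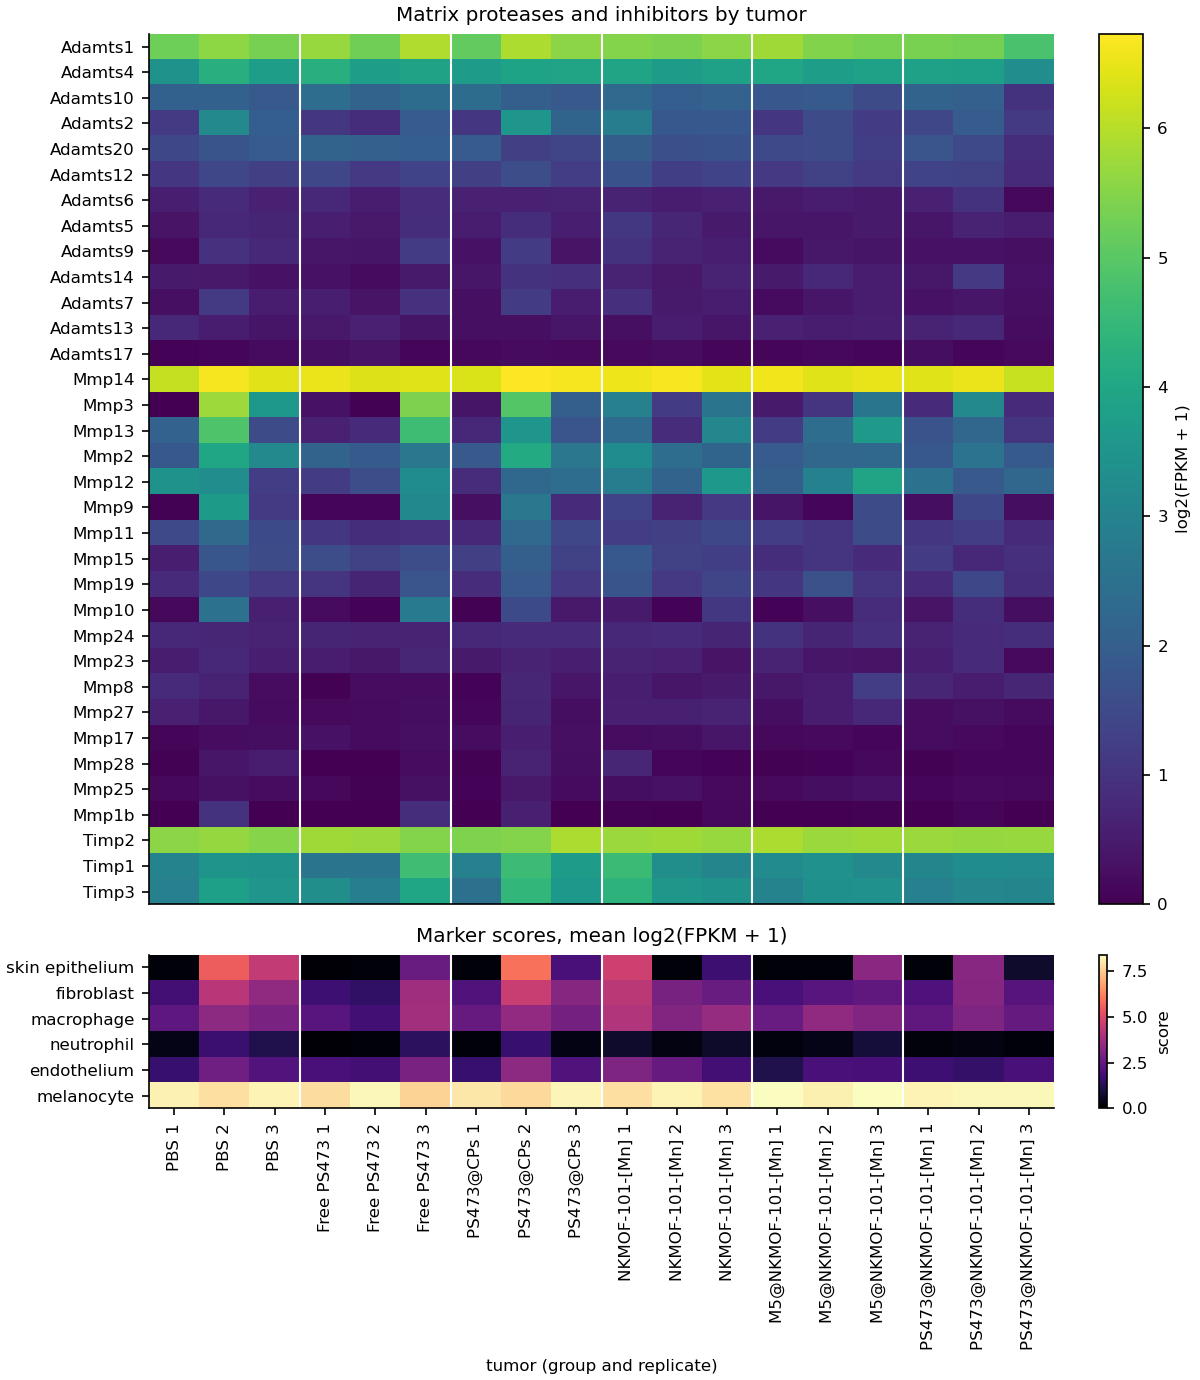
Heat map of log2(FPKM + 1) for the 34 members with a mean of at least 0.1 FPKM (upper panel, rows) in the 18 tumors (columns, by group and replicate), with 6 marker scores below, each the mean log2(FPKM + 1) of a list of cell type genes. Mmp14, Timp2 and Adamts1 are high in every column, while Mmp3 and Mmp9 are highest in PBS 2, Free PS473 3 and PS473@CPs 2.

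The membrane protease Mmp14 and the inhibitor Timp2 were the most abundant members, with a coefficient of variation over the tumors of 11.0% and 9.64%. Mmp14, a membrane-anchored protease that activates the precursor of Mmp2, averaged 88.4 FPKM with a range of 68.9 to 105 FPKM. Its level was 68.9, 98.9 and 84.7 FPKM with PBS, 91.4, 82.6 and 83.8 with Free PS473, 80.05, 105 and 99.0 with PS473@CPs, 93.7, 101 and 86.7 with NKMOF-101-[Mn], 95.4, 83.9 and 89.97 with M5@NKMOF-101-[Mn] and 83.5, 92.2 and 71.4 with PS473@NKMOF-101-[Mn]. No group stood apart, and Mmp14 made up 42.5% to 89.7% of the summed Mmp FPKM of a tumor. Timp2, the inhibitor that also links Mmp14 to the precursor of Mmp2, averaged 50.3 FPKM. Its level was 45.9, 49.8 and 44.6 FPKM with PBS, 53.5, 51.3 and 43.5 with Free PS473, 41.8, 43.7 and 58.6 with PS473@CPs, 51.9, 53.5 and 51.1 with NKMOF-101-[Mn], 59.0, 51.6 and 53.6 with M5@NKMOF-101-[Mn] and 51.6, 49.4 and 50.6 with PS473@NKMOF-101-[Mn]. The ratio of Timp2 to Mmp14, both in FPKM, lay between 0.416 and 0.709, and Timp2 made up 49.6% to 81.8% of the summed Timp FPKM.

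The other inhibitors were lower and more variable. Timp1, an inducible inhibitor of many Mmp proteins, was at 7.07, 10.2 and 10.1 FPKM with PBS, 5.00, 5.06 and 24.6 with Free PS473, 6.58, 23.6 and 12.0 with PS473@CPs, 23.0, 9.09 and 7.38 with NKMOF-101-[Mn], 8.45, 9.68 and 8.07 with M5@NKMOF-101-[Mn] and 7.55, 8.73 and 8.44 with PS473@NKMOF-101-[Mn]. The 3 highest tumors, Free PS473 3, PS473@CPs 2 and NKMOF-101-[Mn] 1, belonged to 3 different groups. Timp3, an inhibitor held in the matrix that also blocks Adamts proteins, was at 6.68, 12.8 and 10.4 FPKM with PBS, 9.01, 6.39 and 14.5 with Free PS473, 4.63, 20.8 and 11.0 with PS473@CPs, 19.6, 10.8 and 10.0 with NKMOF-101-[Mn], 7.12, 9.36 and 9.65 with M5@NKMOF-101-[Mn] and 6.61, 7.65 and 7.44 with PS473@NKMOF-101-[Mn]. It was highest in PS473@CPs 2 and lowest in PS473@CPs 1, within 1 group. Timp4 averaged 0.0616 FPKM and was not tested.

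The 2 leading Adamts genes were proteoglycan-cutting enzymes. Adamts1 was at 36.9, 47.2 and 40.1 FPKM with PBS, 50.2, 37.7 and 60.04 with Free PS473, 33.3, 58.5 and 46.0 with PS473@CPs, 43.4, 40.9 and 46.2 with NKMOF-101-[Mn], 53.1, 42.8 and 40.2 with M5@NKMOF-101-[Mn] and 40.6, 39.3 and 26.6 with PS473@NKMOF-101-[Mn]. Its lowest value was in PS473@NKMOF-101-[Mn] 3 and its highest in Free PS473 3. Adamts4 was at 9.97, 17.6 and 12.7 FPKM with PBS, 17.9, 12.4 and 13.8 with Free PS473, 11.9, 14.0 and 14.3 with PS473@CPs, 14.3, 11.9 and 13.5 with NKMOF-101-[Mn], 14.9, 12.5 and 13.5 with M5@NKMOF-101-[Mn] and 13.4, 12.9 and 8.77 with PS473@NKMOF-101-[Mn]. It too was lowest in PS473@NKMOF-101-[Mn] 3. Adamts10, which is tied to microfibrils, was at 3.27, 3.22 and 2.71 FPKM with PBS, 4.31, 3.44 and 4.20 with Free PS473, 4.18, 3.12 and 2.67 with PS473@CPs, 3.96, 3.04 and 3.35 with NKMOF-101-[Mn], 2.57, 2.78 and 1.91 with M5@NKMOF-101-[Mn] and 3.39, 3.19 and 0.992 with PS473@NKMOF-101-[Mn]. Adamts20, known for its part in the survival of pigment cell precursors, was at 1.75, 2.36 and 2.91 FPKM with PBS, 3.44, 3.17 and 3.05 with Free PS473, 2.79, 1.41 and 1.64 with PS473@CPs, 2.98, 2.10 and 2.25 with NKMOF-101-[Mn], 1.82, 1.98 and 1.39 with M5@NKMOF-101-[Mn] and 2.40, 1.81 and 0.830 with PS473@NKMOF-101-[Mn]. Both were lowest in PS473@NKMOF-101-[Mn] 3 and highest in Free PS473 1. That 1 tumor, PS473@NKMOF-101-[Mn] 3, held the lowest value of 5 of the 6 tested Adamts genes (all but Adamts2), while 20.7% of all 12357 tested genes were lowest there, the highest such share of any tumor.

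Among the tested members, the secreted proteases Mmp3, Mmp13, Mmp9 and Mmp12 and the procollagen-trimming Adamts2 had the largest SD of log2(FPKM + 1) over the tumors. Mmp3, a stromelysin that cuts proteoglycans and activates other Mmp precursors, was at 0, 53.1 and 11.1 FPKM with PBS, 0.252, 0.0329 and 41.3 with Free PS473, 0.293, 29.7 and 3.12 with PS473@CPs, 6.58, 1.29 and 4.97 with NKMOF-101-[Mn], 0.408, 1.01 and 5.10 with M5@NKMOF-101-[Mn] and 0.749, 7.99 and 0.770 with PS473@NKMOF-101-[Mn]. The 3 tumors above 25 FPKM came from 3 groups, each of which also held a tumor under 0.3 FPKM. In PBS 1, Mmp3 was listed at 0, and 3 fragments there would equal 0.0843 FPKM. The SD of its log2 level was 1.87, above 99.6% of all tested genes. Mmp13, a collagenase, was at 3.37, 28.4 and 1.97 FPKM with PBS, 0.539, 0.758 and 23.9 with Free PS473, 0.695, 10.6 and 2.40 with PS473@CPs, 4.11, 0.824 and 7.59 with NKMOF-101-[Mn], 1.28, 4.28 and 11.4 with M5@NKMOF-101-[Mn] and 2.29, 3.67 and 1.02 with PS473@NKMOF-101-[Mn]. PBS 2, Free PS473 3, M5@NKMOF-101-[Mn] 3 and PS473@CPs 2 were high. Mmp9, a gelatinase carried by neutrophils and macrophages, was at 0.0308, 11.6 and 1.19 FPKM with PBS, 0.0613, 0.0800 and 7.76 with Free PS473, 0.209, 5.43 and 0.766 with PS473@CPs, 1.56, 0.591 and 1.17 with NKMOF-101-[Mn], 0.292, 0.0918 and 1.89 with M5@NKMOF-101-[Mn] and 0.187, 1.76 and 0.181 with PS473@NKMOF-101-[Mn]. The same 3 tumors as for Mmp3 were highest.

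Mmp12, the macrophage elastase and the direct neighbour of Mmp13, followed another order of tumors than Mmp3 and Mmp9, and its order was nearer to that of Mmp13. It was at 9.86, 8.79 and 1.33 FPKM with PBS, 1.30, 1.99 and 8.68 with Free PS473, 0.798, 3.73 and 4.28 with PS473@CPs, 6.10, 3.44 and 11.1 with NKMOF-101-[Mn], 3.11, 6.75 and 14.2 with M5@NKMOF-101-[Mn] and 4.73, 2.70 and 3.65 with PS473@NKMOF-101-[Mn]. The third tumors of M5@NKMOF-101-[Mn] and of NKMOF-101-[Mn] were highest, and PS473@CPs 2, high in Mmp3, was at 3.73 FPKM. Mmp10, a second stromelysin of the cluster, named after its values were seen, was at 0.115, 4.79 and 0.50 FPKM with PBS, 0.143, 0.0450 and 5.97 with Free PS473, 0.0286, 1.83 and 0.365 with PS473@CPs, 0.396, 0.0519 and 1.12 with NKMOF-101-[Mn], 0.0503, 0.215 and 0.815 with M5@NKMOF-101-[Mn] and 0.281, 0.851 and 0.198 with PS473@NKMOF-101-[Mn]. It was highest in Free PS473 3, PBS 2 and PS473@CPs 2, the 3 tumors highest in Mmp3. Mmp1b was above 0.2 FPKM in the same 3 tumors alone (0.989, 0.841 and 0.50 FPKM) and at most 0.113 FPKM elsewhere.

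Adamts2, which removes the amino-terminal part of procollagens, was at 1.21, 7.96 and 3.06 FPKM with PBS, 1.08, 0.825 and 2.85 with Free PS473, 1.10, 10.5 and 3.49 with PS473@CPs, 6.28, 2.61 and 2.60 with NKMOF-101-[Mn], 1.09, 1.90 and 1.29 with M5@NKMOF-101-[Mn] and 1.72, 2.89 and 1.21 with PS473@NKMOF-101-[Mn]. Mmp2, the gelatinase that Mmp14 activates, was at 2.64, 14.9 and 8.01 FPKM with PBS, 3.41, 2.75 and 5.42 with Free PS473, 2.71, 16.4 and 5.37 with PS473@CPs, 8.60, 4.28 and 3.48 with NKMOF-101-[Mn], 2.83, 3.62 and 3.87 with M5@NKMOF-101-[Mn] and 2.59, 4.94 and 2.73 with PS473@NKMOF-101-[Mn]. Both were highest in PS473@CPs 2 and next highest in PBS 2, which lay first and second in skin epithelium score. The remaining tested members were lower: Mmp11, Mmp15, Mmp19 and Adamts12 averaged 1.61, 1.52, 1.41 and 1.46 FPKM.

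The first question was whether the active ribozyme in its carrier changed these genes against each other group, and whether each other agent did so against PBS. Log2(FPKM + 1) of all 12357 tested genes was fitted with limma over the 18 tumors, and a gene was called at an adjusted p under 0.05 with a fold change above 2. In all 9 comparisons 0 of 18 members were called, as were 0% of all genes. The 5 comparisons of PS473@NKMOF-101-[Mn] share its 3 tumors, and the 5 with PBS share the PBS tumors, so their values are not independent of each other.

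At an unadjusted p under 0.05, 1 of 18 members passed for PS473@NKMOF-101-[Mn] against PBS, beside 2.1% of all genes. This was Mmp11, a stromelysin mostly made by stromal cells, at 1.81, 4.00 and 1.84 FPKM with PBS, 1.08, 0.840 and 0.958 with Free PS473, 0.722, 3.96 and 1.69 with PS473@CPs, 1.35, 1.43 and 1.74 with NKMOF-101-[Mn], 1.35, 1.07 and 1.97 with M5@NKMOF-101-[Mn] and 1.08, 1.33 and 0.784 with PS473@NKMOF-101-[Mn]. Its 3 PBS values (1.81 to 4.00 FPKM) lay above the 3 of PS473@NKMOF-101-[Mn] (0.784 to 1.33 FPKM), a log2 difference of -0.74 (SE 0.30, limma unadjusted p = 0.0287, adjusted p = 0.993). Without PBS 2 the difference of Mmp11 was -0.46. Next came Mmp2, at -0.91 (SE 0.54, limma unadjusted p = 0.114, adjusted p = 0.993), whose groups overlapped and whose difference was -1.48 without PBS 1, -0.41 without PBS 2 and 0.0057 without the 6 tumors richest in skin markers. Mmp3 had the largest difference of the members here, -1.52 (SE 1.57, limma unadjusted p = 0.349, adjusted p = 0.993), with a 95% interval of -4.87 to 1.84. The median log2 difference was -0.34 over the 18 members and -0.01 over all tested genes.

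Against Free PS473, 3 of 18 members passed at the unadjusted threshold, all lower in PS473@NKMOF-101-[Mn], beside 4.98% of all genes. Adamts20 differed by -0.70 (SE 0.22, limma unadjusted p = 0.00562, adjusted p = 0.781) and its groups did not overlap. Adamts10 differed by -0.58 (SE 0.24, limma unadjusted p = 0.0265, adjusted p = 0.953), also without overlap. Adamts1 differed by -0.46 (SE 0.21, limma unadjusted p = 0.0462, adjusted p = 0.960) with overlapping groups. Without PS473@NKMOF-101-[Mn] 3 the differences of Adamts20 and Adamts10 were -0.45 and -0.21, and 1 of 18 members remained under the threshold (share of all genes not given for this fit).

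Against PS473@CPs, 0 of 18 members passed (2.29% of all genes). Mmp15, a membrane-anchored protease related to Mmp14, came closest at -0.58 (SE 0.28, limma unadjusted p = 0.0567, adjusted p = 0.996). Its level was 0.485, 2.48 and 1.88 FPKM with PBS, 2.03, 1.48 and 2.03 with Free PS473, 1.43, 3.07 and 1.49 with PS473@CPs, 2.64, 1.48 and 1.39 with NKMOF-101-[Mn], 0.827, 1.04 and 0.748 with M5@NKMOF-101-[Mn] and 1.29, 0.689 and 0.906 with PS473@NKMOF-101-[Mn]. The values of the 2 groups did not overlap. Without PS473@CPs 2 the difference of Mmp15 was -0.34. Adamts1 followed at -0.35 (SE 0.21, limma unadjusted p = 0.120, adjusted p = 0.996), and at -0.16 without PS473@CPs 2 or without PS473@NKMOF-101-[Mn] 3 and -0.56 without PS473@CPs 1. Without PS473@CPs 1, the tumor of that group with the lowest Mmp3, 7 of 18 members were under the unadjusted threshold, and 0 were called after adjustment. The share of all genes under that threshold in this fit is not given, so the 7 cannot be read as particular to the members.

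Against the empty carrier, NKMOF-101-[Mn], 0 of 18 members passed (2.3% of all genes). All 18 differences were negative, with a median of -0.41 against -0.04 over all tested genes. The share of all genes with a negative difference is not given. Many members varied with each other and all share the same tumors, so the 18 signs are not independent. Timp3 had the smallest p, at -0.75 (SE 0.40, limma unadjusted p = 0.0808, adjusted p = 0.999), with no overlap between the groups, and Adamts20 was next at -0.40 (SE 0.22, limma unadjusted p = 0.0849, adjusted p = 0.999). The fibroblast score, over 12 genes, lay between 2.64 and 4.32 in NKMOF-101-[Mn] and between 2.09 and 3.25 in PS473@NKMOF-101-[Mn] tumors, and the neutrophil score, over 13 genes, between 0.283 and 0.705 and between 0.172 and 0.279. The macrophage score lay between 3.16 and 4.10 with the empty carrier and between 2.45 and 3.06 with the loaded one, the endothelium score between 1.85 and 3.07 and between 1.55 and 1.98, and the skin epithelium score between 0.141 and 4.71 and between 0.152 and 3.27. The macrophage and neutrophil ranges of the groups did not overlap but nearly met (3.06 and 3.16, 0.279 and 0.283), while the other 3 overlapped. Whether any score differs between the groups was not tested. Without NKMOF-101-[Mn] 1 the difference of Timp3 was -0.47, and without PS473@NKMOF-101-[Mn] 3 that of Adamts20 was -0.15. Of these scores, the skin epithelium score alone was also added to the comparison as a covariate, and 0 members were called. Over the alternative fits that include this one, leaving-out of single tumors aside, the difference lay between -0.82 and -0.51 for Timp3. For Adamts20 it lay between -0.61 and -0.27. The part of the other scores in the differences was not tested.

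Against M5@NKMOF-101-[Mn], the same carrier with the inactive mutant at the same schedule, 0 of 18 members passed (0.591% of all genes). The smallest p belonged to Adamts1, at -0.36 (SE 0.21, limma unadjusted p = 0.112, adjusted p = 1.00), and to Adamts4, at -0.23 (SE 0.19, limma unadjusted p = 0.250, adjusted p = 1.00). Without PS473@NKMOF-101-[Mn] 3 these differences were -0.17 and -0.05. The 95% interval of the difference ran from -0.42 to 0.16 on the log2 scale for Mmp14 and from -0.36 to 0.13 for Timp2, but from -3.12 to 3.58 for Mmp3. For the variable members these data therefore leave room for large differences in either direction.

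Of the other agents, Free PS473 against PBS had 1 of 18 members at an unadjusted p under 0.05 (1.81% of all genes), again Mmp11, at -0.80 (SE 0.30, limma unadjusted p = 0.0185, adjusted p = 1.000), with no overlap. Adamts20, the next, differed by 0.35 (SE 0.22, limma unadjusted p = 0.125, adjusted p = 1.000). PS473@CPs against PBS had 0 (2.09%), and Mmp14, at 0.17 (SE 0.14, limma unadjusted p = 0.220, adjusted p = 1.000), and Mmp12, at -0.82 (SE 0.68, limma unadjusted p = 0.247, adjusted p = 1.000), had the smallest p. NKMOF-101-[Mn] against PBS had 0 (1.46%), led by Mmp11, at -0.45 (SE 0.30, limma unadjusted p = 0.159, adjusted p = 1.000), and Timp2, at 0.16 (SE 0.11, limma unadjusted p = 0.189, adjusted p = 1.000). M5@NKMOF-101-[Mn] against PBS had 0 (1.51%), led by Timp2, at 0.22 (SE 0.11, limma unadjusted p = 0.0703, adjusted p = 0.999), and Mmp11, at -0.49 (SE 0.30, limma unadjusted p = 0.129, adjusted p = 0.999). The 3 Timp2 values of NKMOF-101-[Mn] and the 3 of M5@NKMOF-101-[Mn] lay above the 3 of PBS. Single tumors moved several of these values by more than 1.5 times. Without PBS 2 the Mmp11 difference was -0.53 for Free PS473, -0.18 for NKMOF-101-[Mn] and -0.21 for the carrier with M5. Without PBS 1 the Adamts20 difference was 0.22. For PS473@CPs, leaving out 1 tumor gave 0.04 to 0.30 for Mmp14, the lowest without PBS 1 and the highest without PBS 2, and -1.54 to -0.33 for Mmp12, the lowest without PBS 3 and the highest without PS473@CPs 1.

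An F test over the 6 groups called 0 of 18 members and 0% of all genes at an adjusted p under 0.05, and 0 of 18 members passed at an unadjusted p under 0.05, against 1.99% of all genes. The smallest F test p of a member was 0.0525. Of 55 other genes of matrix proteolysis, such as cathepsins and plasminogen activators, 35 were tested and 0 were called in each of the 9 comparisons, the same count as for the members.

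**Figure D2:**
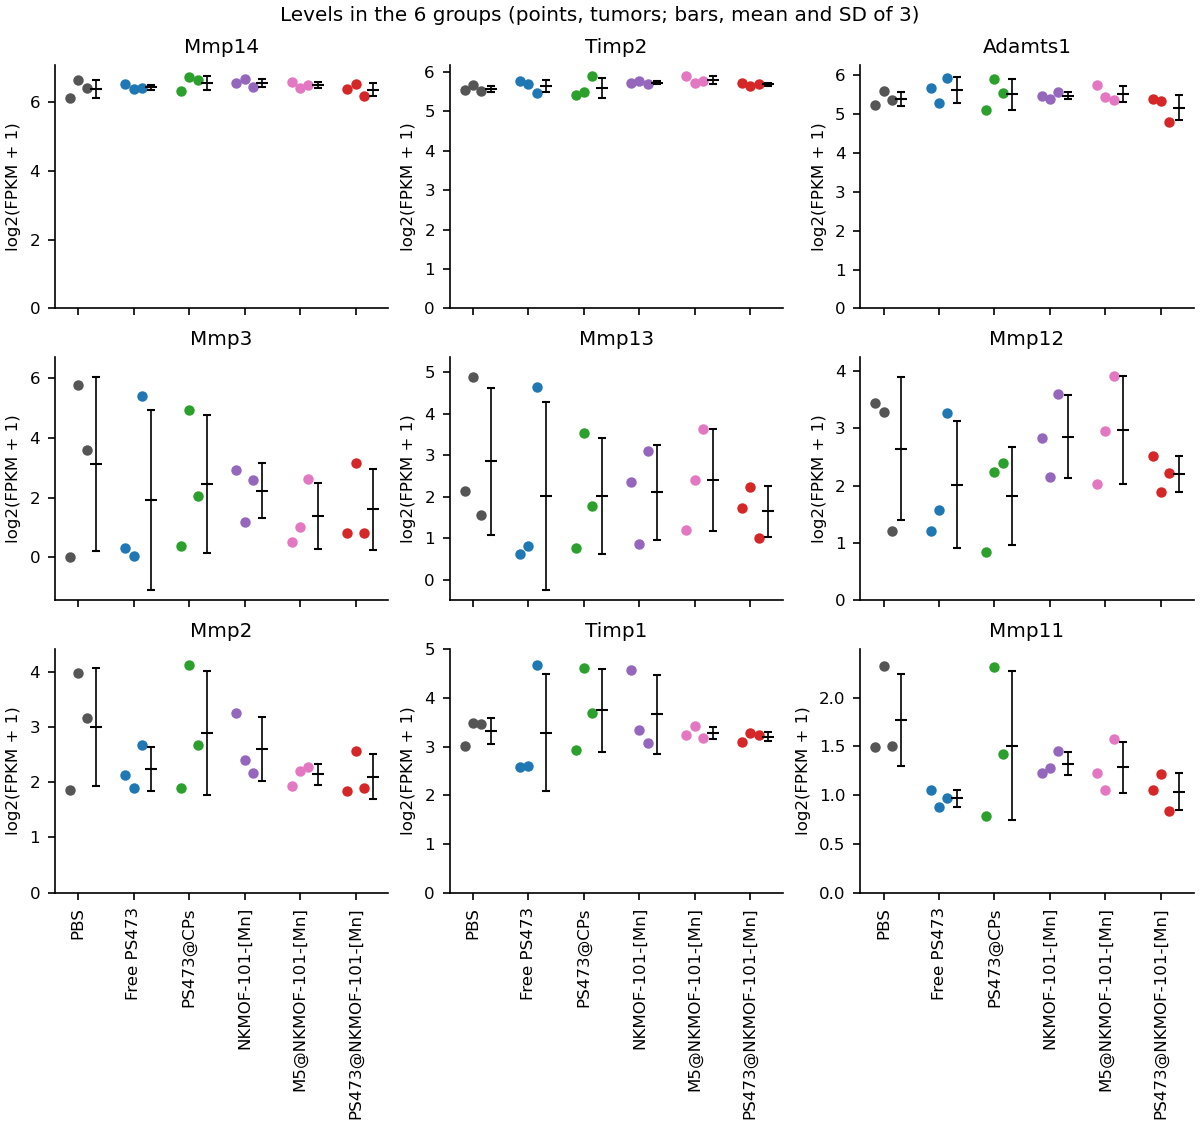
Levels of 9 members as log2(FPKM + 1) in each tumor (points, 3 per group) with the group mean and SD beside them. Mmp14, Timp2 and Adamts1 lie in narrow bands, while the Mmp3 points of PBS, Free PS473 and PS473@CPs each spread from under 1 to above 4.

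**Figure D3:**
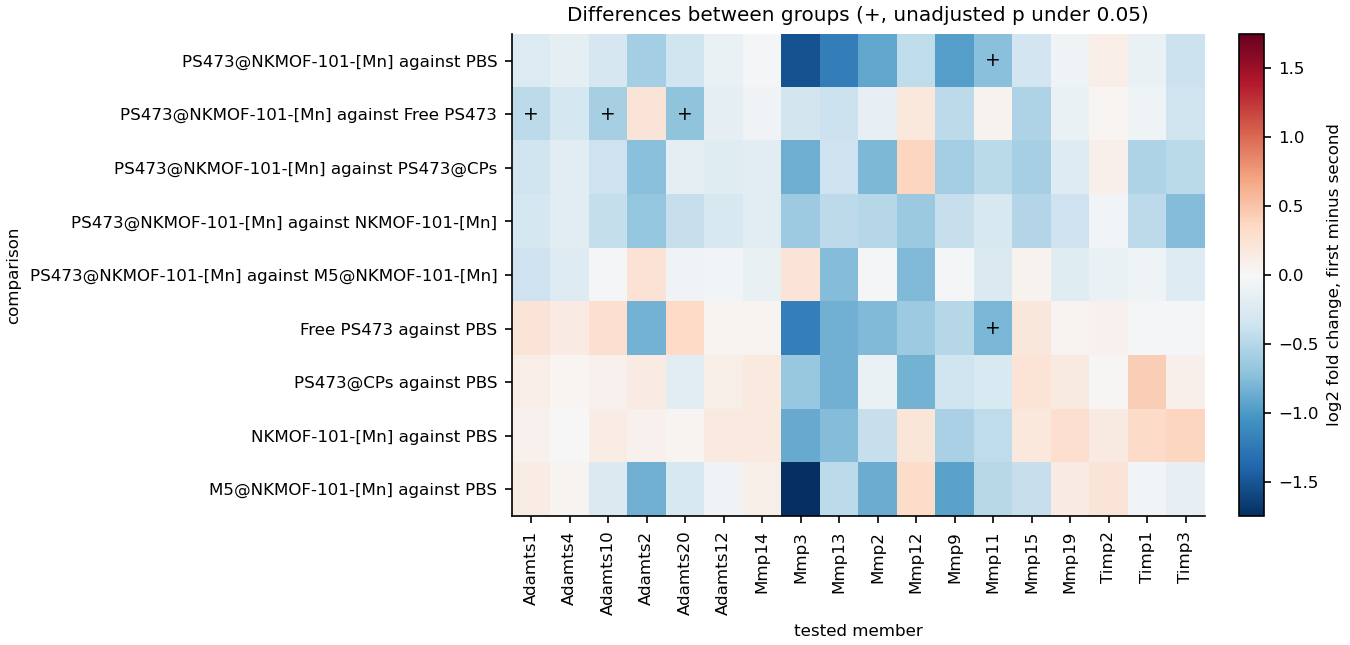
Log2 fold changes of the 18 tested members (columns) in the 9 comparisons (rows), the first named group minus the second, with + at an unadjusted limma p under 0.05. There are 5 such marks in all, on Mmp11 in a pair of comparisons with PBS and on Adamts1, Adamts10 and Adamts20 in the comparison with Free PS473.

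The second question was what the large spread within groups went with. Each member was fitted on a marker score beside the 6 group means, which leaves only the variation between tumors of the same group. With the fibroblast score 9 of 18 members were higher at an adjusted p under 0.05 (8.11% of all genes were higher and 0.947% lower). With the skin epithelium score the count was 8 (6.17% and 0.477%), with the macrophage score 8 (7.1% and 1.67%), with the neutrophil score 9 (5.91% and 0.566%) and with the endothelium score 8 (5.32% and 0.486%). With the melanocyte score it was 0 (0.672% and 0.259%). The median slope on that score was -1.15 over the members and 0.03 over all tested genes, while the score itself spanned only 7.63 to 8.40. No member was called lower with any score. The scores were built from lists of 9 to 15 marker genes, none of them a member.

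Slopes are per unit of score, and the scores spanned unlike ranges, so slopes on different scores cannot be set against each other. The neutrophil score ran from 0.107 to 1.69, the fibroblast score from 1.49 to 4.58 and the skin epithelium score from 0.114 to 5.91. The steepest member on each of these scores was Mmp3. Its log2 level rose with the neutrophil score by 3.64 (SE 0.33, limma adjusted p = 1.34e-05) per unit of score, with the fibroblast score by 2.00 (SE 0.21, limma adjusted p = 2.86e-05), and with the skin epithelium score by 0.83 (SE 0.12, limma adjusted p = 0.000304). Mmp3 stayed called in all 18 fits that left out 1 tumor for each of these 3 scores, and in 14 of 18 for the endothelium score. Mmp9 rose with the neutrophil score by 2.11 (SE 0.23, limma adjusted p = 4.37e-05) and Mmp13 by 2.36 (SE 0.36, limma adjusted p = 0.000735). With the macrophage score Mmp3, Mmp9 and Mmp13 rose by 3.27, 1.78 and 2.14 (limma adjusted p = 0.000846, 0.00483 and 0.00481). Mmp9 and Mmp13 were also called with the fibroblast and skin epithelium scores, and Mmp9 with the endothelium score. Mmp10, named after its values were seen and fitted with no filter on level, rose with the neutrophil score by 1.51 (SE 0.21, limma adjusted p = 0.00117). Of the other members below 1 FPKM, Adamts9, Adamts7, Mmp25 and Mmp1b were called in that fit. Mmp8, the neutrophil collagenase, was not, at 0.21 (SE 0.12, limma adjusted p = 0.434). In PBS the tumor order was the same for Mmp3 and the neutrophil score at the top, PBS 2 at 53.1 FPKM and a score of 1.69 and PBS 3 at 11.1 FPKM and 1.15, with PBS 1 at 0 FPKM and 0.382. In Free PS473 and PS473@CPs, the tumors with the highest Mmp3 (41.3 and 29.7 FPKM) also had the highest neutrophil scores (1.40 and 1.63). Only 3 of the 13 neutrophil genes averaged 1 FPKM or more. These were S100a8 (0 to 252 FPKM over the tumors), S100a9 (0 to 209) and Clec4d (0.268 to 5.60). Ly6g, which defines neutrophils in the mouse, was below 0.1 FPKM in all 18 tumors. Whether the score follows the number of neutrophils was not tested.

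Mmp2 and Adamts2, both acting on collagen, had their smallest adjusted p with the fibroblast score. Mmp2 rose with it by 0.69 (SE 0.07, limma adjusted p = 2.23e-05) and Adamts2 by 0.72 (SE 0.07, limma adjusted p = 2.24e-05) per unit. Of the inhibitors, Timp3 rose by 0.50 (SE 0.06, limma adjusted p = 0.000101) and Timp1 by 0.62 (SE 0.09, limma adjusted p = 0.000447). Mmp19, a secreted protease, rose by 0.37 (SE 0.06, limma adjusted p = 0.000799). Mmp15 was called with the fibroblast and the endothelium score, and Mmp11 with the neutrophil score alone, at 0.52 (SE 0.14, limma adjusted p = 0.0438). These calls of Mmp15 and Mmp11 depended on which tumors were in the fit. With 1 tumor left out, Mmp15 was called in 10 of 18 fits with the fibroblast score and 13 of 18 with the endothelium score, and Mmp11 in 6 of 18. Without PS473@CPs 2 the slope of Mmp11 was 0.32 (limma adjusted p = 0.492) and that of Mmp15 on the fibroblast score 0.18 (limma adjusted p = 0.136). With the replicate number as a block, limma adjusted p was 0.108 for Mmp11 and 0.0552 for Mmp15 with the fibroblast score. Without the 6 tumors richest in skin markers, the fibroblast slopes were 0.40 for Mmp2 (limma adjusted p = 0.0390), 0.55 for Adamts2 (0.04001), 0.52 for Timp3 (0.0380), 0.92 for Timp1 (0.00160), 2.18 for Mmp3 (0.0157) and 1.19 for Mmp9 (0.0257). Mmp13, Mmp19 and Mmp15 were not called then, at 1.56 (limma adjusted p = 0.0906), 0.40 (0.0929) and 0.07 (0.639), nor was Mmp11 with the neutrophil score, at 0.07 (0.893).

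Mmp14, Timp2, Mmp12, Adamts1, Adamts4, Adamts10, Adamts12 and Adamts20 were called with none of the 6 scores. The slope of Timp2 on the fibroblast score was -0.02 (SE 0.04, limma adjusted p = 0.830), and that of Mmp14 was 0.11 (SE 0.04, limma adjusted p = 0.159). The slope of Mmp12, the macrophage elastase, on the macrophage score was 0.75 (SE 0.38, limma adjusted p = 0.276), with a 95% interval of -0.05 to 1.56.

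Of the 35 other tested genes of matrix proteolysis, 21 were called higher with the fibroblast score and 0 lower, among them the plasminogen activators Plau and Plat, Ctsk, a collagen-cutting cathepsin, and the matrix glycoproteins Thbs1 and Thbs2. The counts were 17 with the skin epithelium, 21 with the macrophage, 19 with the neutrophil, 15 with the endothelium and 0 with the melanocyte score.

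The scores shared their extremes, so that their parts cannot be told apart: PS473@CPs 2 and PBS 2 were first and second in skin epithelium score and also had the highest neutrophil scores. In bulk tissue, fewer cells of a type and less RNA per cell cannot be told apart either. Without the 6 tumors richest in skin markers, Mmp3, Mmp13, Mmp9 and Timp1 were still called with the neutrophil score, with slopes of 4.08, 3.32, 2.26 and 1.5, and 0 members were called with the endothelium score. Among the 12 tumors left, Free PS473 3 alone had a neutrophil score above 0.689, and it held their highest Mmp3, Mmp13, Mmp9 and Timp1 levels. With that tumor left out as well, 0 of 18 members were called with the neutrophil score in the 11 tumors. The slopes were then 4.24, 5.99, 1.15 and 0.17 (limma adjusted p = 0.541, 0.170, 0.635 and 0.968), with scores of 0.107 to 0.689 only. Without PS473@CPs 2 the count fell from 9 to 5 for the neutrophil score and from 8 to 2 for the endothelium score. The count for the skin epithelium score was 5 without any 1 of PBS 2, PS473@CPs 1, PS473@CPs 2 or NKMOF-101-[Mn] 2.

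**Figure D4:**
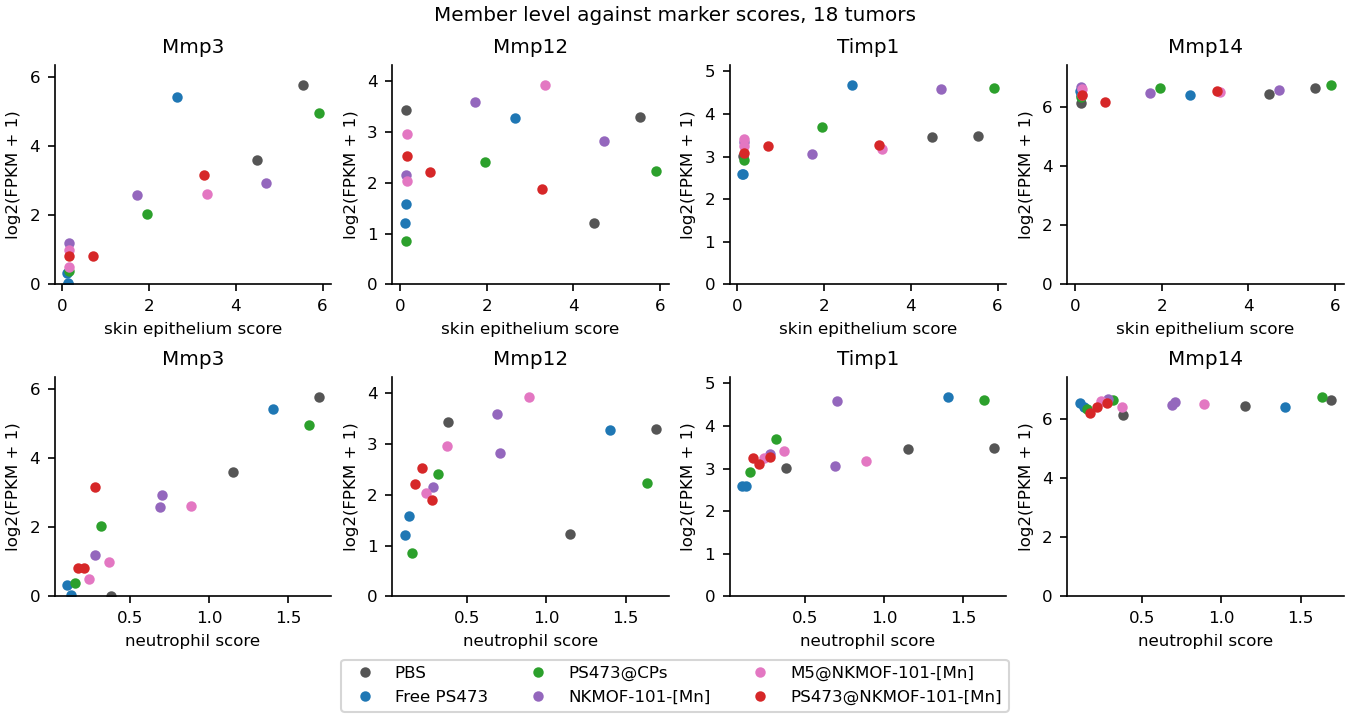
Log2(FPKM + 1) of Mmp3, Mmp12, Timp1 and Mmp14 (y axes) against the skin epithelium score (upper row) and the neutrophil score (lower row, x axes, mean log2(FPKM + 1) of the marker list), 1 point per tumor coloured by group. Mmp3 climbs along both axes to above 4 in PBS 2, Free PS473 3 and PS473@CPs 2, whereas Mmp14 stays between 6 and 7.

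**Figure D5:**
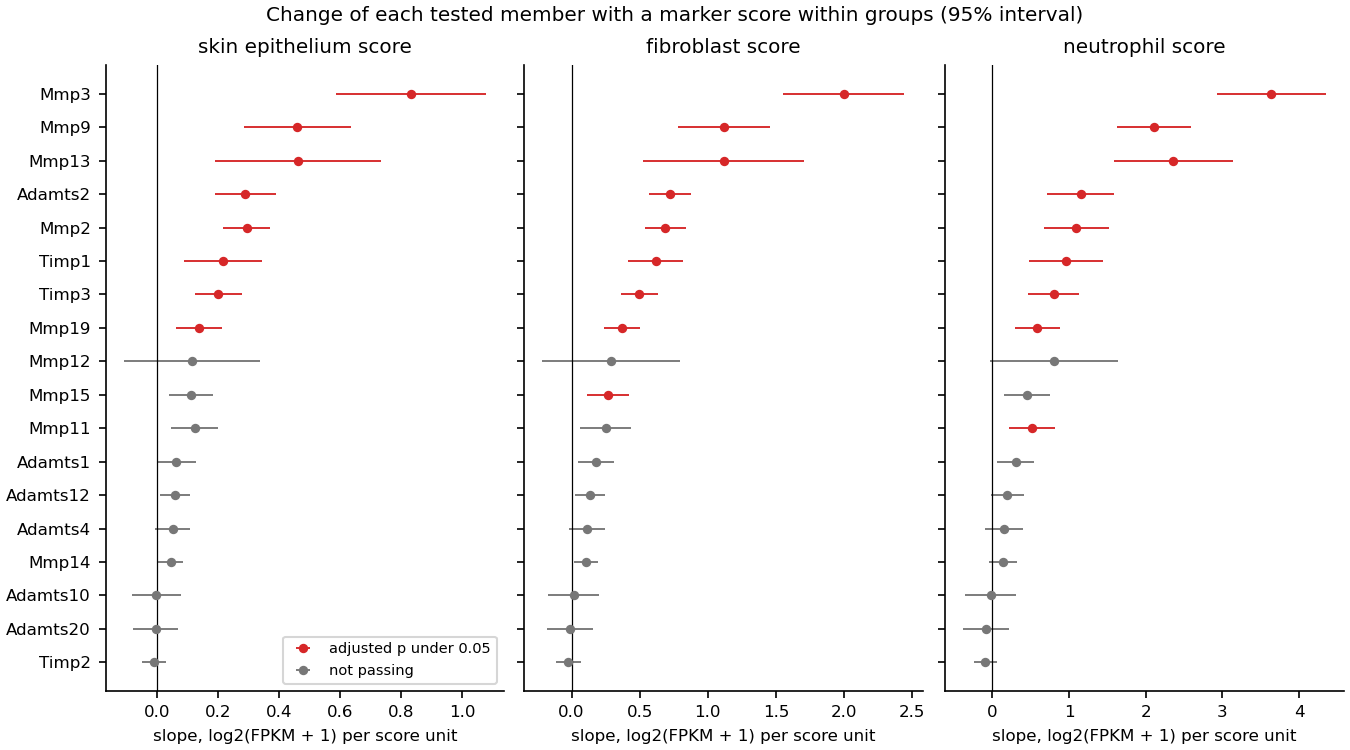
Slopes of the 18 tested members on 3 marker scores, in log2(FPKM + 1) per unit of score beside the group means, with 95% intervals, red where the limma adjusted p is under 0.05. Mmp3, Mmp9 and Mmp13 lie at the top in each panel, and Timp2, Adamts20 and Adamts10 lie at about 0.

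The members also varied with each other. Of 153 pairs of tested members, correlated over the 18 tumors with 100000 permutations, 47 passed an adjusted p of 0.05 for both Pearson's r and Spearman's rho, and all 47 were positive. With this number of permutations 1e-05 is the smallest p they can give. Pairs of other genes were not computed, so the share of passing pairs over all genes is not known. Mmp3 and Mmp9 had the highest correlation, r = 0.965 and rho = 0.940 (permutation p = 1e-05 and 1e-05, adjusted p = 0.000765 and 0.000382), with r = 0.952 without the 2 tumors farthest from the median of Mmp3 and 0.965 within groups. Adamts2 and Mmp2 had r = 0.946 and rho = 0.856 (permutation p = 1e-05 and 1e-05, adjusted p = 0.000765 and 0.000382), with 0.876 without the 2 farthest tumors and 0.971 within groups. Timp3 had the most partners, 11 of 17.

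Within the chromosome 9 cluster the neighbours did not all move alike. Mmp13 varied with Mmp3, at r = 0.839 and rho = 0.742 (permutation p = 5e-05 and 0.0007, adjusted p = 0.000835 and 0.00487). It also varied with Mmp12, at r = 0.735 and rho = 0.808 (permutation p = 0.00062 and 8e-05, adjusted p = 0.00438 and 0.000816). Without the 2 farthest tumors r was 0.692 and 0.738 for these pairs. Mmp3 and Mmp12 had r = 0.343 and rho = 0.319 (permutation p = 0.163 and 0.196, adjusted p = 0.242 and 0.295), which did not pass. Within groups r was 0.866, 0.792 and 0.436 for Mmp13 with Mmp3, Mmp13 with Mmp12 and Mmp3 with Mmp12. Of the cluster genes that were not tested, Mmp8, the neutrophil collagenase, averaged 0.440 FPKM, Mmp27 0.328 FPKM, Mmp1b 0.144 FPKM and Mmp1a 0.0244 FPKM. Mmp20, an enamel protease, was above 0 in 1 tumor alone, at 0.0077 FPKM.

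Adamts10 and Adamts20 formed a pair apart from the others, each with 1 partner, with r = 0.829 and rho = 0.794 (permutation p = 2e-05 and 0.00021, adjusted p = 0.000765 and 0.00161), and r = 0.673 without the 2 farthest tumors and 0.777 within groups. Timp2 and Mmp11 had 0 partners. The abundant pair of Mmp14 and Timp2 had r = 0.345 and rho = 0.406 (permutation p = 0.163 and 0.0971, adjusted p = 0.242 and 0.173), which did not pass.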

How the data were processed

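Poly(A) RNA of 18 tumors, 3 per group by the labels, was sequenced by the authors, who deposited FPKM values and 1 length per gene for 41079 genes. The submitters' processing notes name build GRCm39, and the aligner, counter and annotation are not given in the sources used here. FPKM corrects for length and for the fragments assigned per tumor, so a few very abundant genes can lower all others. From the smallest steps between values, 17212000 to 28401000 fragments per tumor were recovered, and 47.1% to 51.3% of low values came out as whole fragments (within 0.01 of a fragment), so no count model was used. Every column of tumor values was used (0 were left out).

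Values were put on a log2(FPKM + 1) scale, which understates changes of low genes, and limma 3.58.1 in R 4.3.3 was run on the 12357 genes that averaged 1 FPKM or more, with 6 group means in 1 fit and a trend in the prior variance. P-values were adjusted by Benjamini-Hochberg over all genes tested in a comparison. Marker scores are means of log2(FPKM + 1) over lists of cell type genes (of the 15 skin epithelium genes 14 were in the table), and were added to the group means 1 at a time. Scores for T cells, skeletal muscle and adipocytes lay between 0.248 and 1.37, 0.365 and 2.36, and 0.506 and 2.22, and were not fitted. Pairs were correlated on the same scale with 100000 two-sided permutations, in Python 3.11.15 with scipy 1.17.1 and numpy 2.4.6. Values per tumor are given for the 3 most abundant members of each family, the 5 of largest SD and the 2 of smallest p in each comparison. The members and lists were chosen with earlier results of these data known. The fits were tested on simulated data. Promoter windows and gene order are RefSeq's for GRCm38.p6, matched by symbol, and no coordinate was taken across builds. The limma p-values rest on the spread between tumors within groups, with 1 estimate per gene shared by the 6 groups because each has only 3 tumors. The permutation p-values of the pairs do not measure this spread. The labels describe the samples as tumors of mice without naming the animals. The replicate numbers were not used as pairs in the main fit, the median correlation of deviations of same-numbered tumors being -0.02. Alternatives were another pseudocount (0.1), other filters, other scalings and fits, and the replicate number as a block. For the comparisons the skin epithelium score was also used as a covariate. Each tumor was left out in turn. Added after seeing the data was leaving out the 6 tumors richest in skin markers, alone or with Free PS473 3.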

Additional observations from a re-analysis of the deposited data

How the results depend on the processing

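In all 252 alternative fits of the 9 comparisons and all 26 of the F test, 0 members were called, and 0 to 7 had an unadjusted p under 0.05. Of 288 refitted log2 differences of the members named for a comparison, 287 kept their direction, though leaving out 1 tumor moved 16 of the 18 by more than 1.5 times, and Mmp2 in PS473@NKMOF-101-[Mn] against PBS turned to 0.0057 without the 6 tumors richest in skin markers. The number of members called with a score moved by more than 1.5 times in 28 of 162 alternatives. With a filter at a mean of 0.1 FPKM, the 16 members between 0.1 and 1 FPKM were tested beside the 18. All members but Mmp7 were tested with no filter. Counts of these fits are thus out of more members, and shares of all genes are not given for them. With the filter at 0.1 FPKM the count was 15 for the skin epithelium, 16 for the fibroblast and 13 for the macrophage score. It was 16 for the neutrophil and 14 for the endothelium score. With no filter it was 16 for the fibroblast, 13 for the macrophage and 14 for the endothelium score. Without the 6 tumors richest in skin markers, with fewer tumors in the fit, it was 5 for the macrophage, 4 for the neutrophil and 0 for the endothelium score, and without Free PS473 3 as well it was 0 for the neutrophil score. With the melanocyte score and no group means it was 2, and the cause was not tested.

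Leaving out 1 tumor at a time gave 5 to 8 members for the skin epithelium score, 7 to 10 for the fibroblast, 7 to 8 for the macrophage, 5 to 10 for the neutrophil, 2 to 9 for the endothelium and 0 to 1 for the melanocyte score. The 1 melanocyte call came without PS473@CPs 1 and without PS473@NKMOF-101-[Mn] 2, and the endothelium count was 4 without PBS 2 or PS473@CPs 1 and 5 without Free PS473 2 or Free PS473 3. With the replicate number as a block the count was 5 for the skin epithelium, 4 for the endothelium and 1 for the melanocyte score, and the block changed no call between groups. Of 45 same-numbered pairs of tumors, 18 had a correlation of deviations above 0.1, as had 41 of 90 pairs with different numbers. These correlations gave no sign of pairing by number. Whether same-numbered tumors shared a batch or a day was not tested.

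Depth limits the lowest members: for Mmp7, 3 fragments would equal 0.095 to 0.157 FPKM. With 3 tumors per group, the 95% interval of the Mmp3 difference against PBS ran from -4.87 to 1.84, so that large differences could not be detected for the variable members.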
